A study of Mus musculus with 2 samples.

Results

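The broad KDM2A domains are the widest merged regions of KDM2A ChIP signal in mouse embryonic stem cells (ESCs), 2.5 kb or more from end to end. They were chosen by tag counts. Each position and strand was counted once, tags were moved 50 bp toward the middle of their fragment, and chromosomes 1 to 19 were divided into bins of 250 bp. A bin passed when it held at least 7 KDM2A tags, at least 3 times the input tags after scaling by library totals, and under 8 input tags, and passing bins with gaps of up to 500 bp were merged. Of 6363633 bins with a tag of either library, 122875 passed (1.93%). They merged into 51078 regions, of which 1746 were 2.5 kb or wider (3.42%, 95% Wilson interval 3.26% to 3.58%). When the libraries were exchanged, so that input had to exceed KDM2A, 3258 bins passed (0.0512%), and the widest of the 3235 regions they formed was 1 kb, so that no domain reached 2.5 kb. Because tag counts chose the domains, their widths and heights are given as descriptions and were not tested.

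KDM2A is a demethylase that removes methyl groups from lysine 36 of histone H3. It carries a ZF-CxxC domain, which binds DNA with nonmethylated CpG dinucleotides. Such DNA is concentrated in CpG islands, short GC-rich stretches found at many gene promoters.

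The study compared chromatin precipitated with a KDM2A antibody with input chromatin, to find where KDM2A sits in the genome. Both libraries came from V6.5 ESCs, a line from a cross of C57BL/6 and 129/sv mice, which were taken off feeder cells before fixation. The cells were fixed with EGS and then formaldehyde in the ChIP, and carried no genetic change or treatment named in the sample records. There was 1 ChIP library of 10042076 tags and 1 input library of 9760426 tags, without replicates, so no p-values are given and every comparison is between these libraries or between classes of regions within them. All intervals cover counting error only, since PCR copies are not independent molecules and neighbouring regions are not independent of each other. Tags carry no expression, so that the cell label was not checked against marker genes. Which genes and CpG islands lie in the domains was not analysed here, because no annotation of the build of the files (mm9) was used.

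The 1746 domains together covered 6.12 Mb, or 0.253% of the span of chromosomes 1 to 19. They held 310488 KDM2A tags, 3.304% of those on these chromosomes, and 30129 input tags, 0.397% of the total. KDM2A density was 50.7 tags per kb in the domains and 3.89 tags per kb over the chromosomes as a whole. Input density was 4.92 and 3.14 tags per kb. The domains thus took a far larger share of the KDM2A tags than of the input tags, as their rule required, but their input density also lay above the genome level.

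The domains were compared with the 11518 merged regions of 1 to 2.25 kb, which passed the same limits per bin. Those regions held 50.1 KDM2A tags and 4.17 input tags per kb, and their ratio of KDM2A to scaled input was 9.74, against 8.37 in the domains. By density of tags the broad domains were therefore no stronger than the shorter regions. They held 19.01% of the KDM2A tags in all merged regions, and the regions of 1 to 2.25 kb held 48.6%.

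The number of domains fell with width. The median domain was 3 kb wide (95% interval of the median 3 to 3 kb, since widths come in steps of 250 bp), with quartiles of 2.75 and 3.75 kb. 402 domains were 4 kb or wider, 190 were 5 kb or wider, 83 were 6 kb or wider, 34 were 8 kb or wider and 14 were 10 kb or wider. The 401 domains of exactly 2.5 kb held a median of 116 KDM2A tags, and the 671 regions of exactly 2.25 kb just outside the limit held 109.

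**Figure D1:**
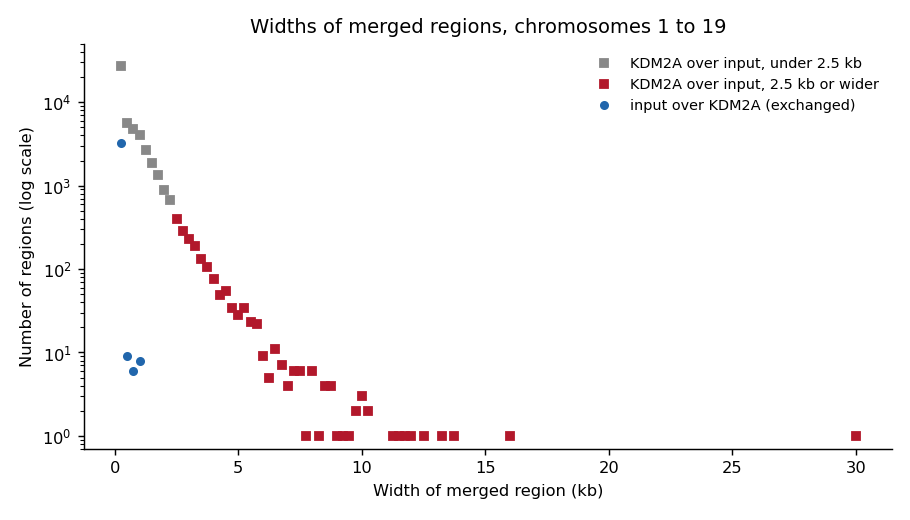
Number of merged regions (vertical axis, log scale) at each width in kb (horizontal axis), for KDM2A over input under 2.5 kb (grey squares) and 2.5 kb or wider (red squares), and for input over KDM2A (blue circles). The number falls from 671 regions at 2.25 kb to 401 at 2.5 kb and goes on falling, while the exchanged comparison ends at 1 kb.

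The number of domains depended on the rule. It was 920 when a bin needed 9 tags, 1066 when gaps of up to 250 bp were merged, 3047 with gaps of up to 1000 bp and 234 with a random 50% of the tags. It was 894 when a bin also had to hold 4 times the KDM2A level of its surroundings. When the bins were moved by 0.5 of their length the number was again 1746, but 70.4% of the domains overlapped a domain of that set, so that which regions reached 2.5 kb depended on where the bins begin.

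Widths and tags varied widely among the domains. The median domain held 155 KDM2A tags (quartiles 118 and 207, range 52 to 1552) and 15 input tags (range 2 to 235). Its KDM2A density was 47.7 tags per kb (quartiles 39.0 and 59.0, range 20 to 126), and the regions of 1 to 2.25 kb had a median of 46.0. Density hardly rose with width, from 47.1 tags per kb in the 1344 domains of 2.5 to 3.75 kb to 48.5 in the 319 domains of 4 to 5.75 kb and 50.3 in the 83 domains of 6 kb or more. Across the 1746 domains, which share both libraries and their depth, Spearman's rho of width with density was 0.07. Wider domains thus extended farther at about the same mean density. Their highest bin held medians of 23, 27 and 31 tags in these classes (Spearman's rho with width 0.22), where a wider domain has more bins.

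The widest domain lay at chr8:123076501-123106500 (mm9) and spanned 30 kb. It held 1552 KDM2A tags and 235 input tags, or 51.7 KDM2A tags per kb (95% Poisson interval 49.2 to 54.4), close to the median of all domains, and 7.83 input tags per kb, above their median of 4.73. Its 120 bins had a median of 12 tags and a highest value of 41 tags, with 14 summits (bins of at least 15 tags parted by a trough at or below 0.5 times the lower of them), or 8 when the trough had to reach 33% of the lower summit. With the bins moved by 0.5 of their length the widest domain of the set was 17500 bp, and with the minimum raised by the input of the chromosome it was 16000 bp. The next widest, at chr15:76001251-76017250, had another form. It spanned 16 kb and held 1447 KDM2A tags and 99 input tags, or 90.4 tags per kb (85.8 to 95.2). Its bins passed the limits without interruption over 12.25 kb, the longest run in any domain.

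8 more domains of 10.25 kb or wider completed the 10 widest. They lay at chr10:80598001-80611750 (13.75 kb), chr10:126945001-126958250 (13.25 kb), chr8:73289751-73302250 (12.5 kb) and chr8:74203001-74215000 (12 kb). The others were chr9:108007001-108018750 (11.75 kb), chr8:72403751-72415250 (11.5 kb), chr10:80824751-80836000 (11.25 kb) and chr10:79475751-79486000 (10.25 kb, tied with a domain on chromosome 5). Of the 10 widest, 4 lay on chromosome 8 and 4 on chromosome 10. Their densities ran from 38.2 tags per kb at chr10:79475751-79486000 (392 KDM2A and 46 input tags) to 93.7 at chr8:72403751-72415250 (1077 KDM2A and 73 input tags).

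The densest domain was of the least width the rule allows. At chr8:97875251-97877750, a domain of 2.5 kb, 315 KDM2A tags and 22 input tags gave 126 tags per kb (112 to 141) around a single summit of 71 tags. The next were chr8:73998251-74001750 (118 tags per kb), chr17:56906001-56908750 (117), chr8:73435501-73441000 (117) and chr8:72975001-72977500 (109), and the 5 were 2.5 to 5.5 kb wide. 4 of these 5 lay on chromosome 8, where the input level was also raised. Beside them, the 5 sparsest domains held 20 to 22.6 tags per kb and no bin of 15 tags. They lay at chr10:75871751-75874750, chr2:152193001-152195500, chr14:55187001-55189500, chr6:125369001-125371500 and chr15:101936751-101940250. The domain on chromosome 2 held 52 KDM2A tags and 14 input tags, a ratio to scaled input of 3.02. The sparsest domains were chains of bins near the limit of 7 tags rather than peaks.

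**Figure D2:**
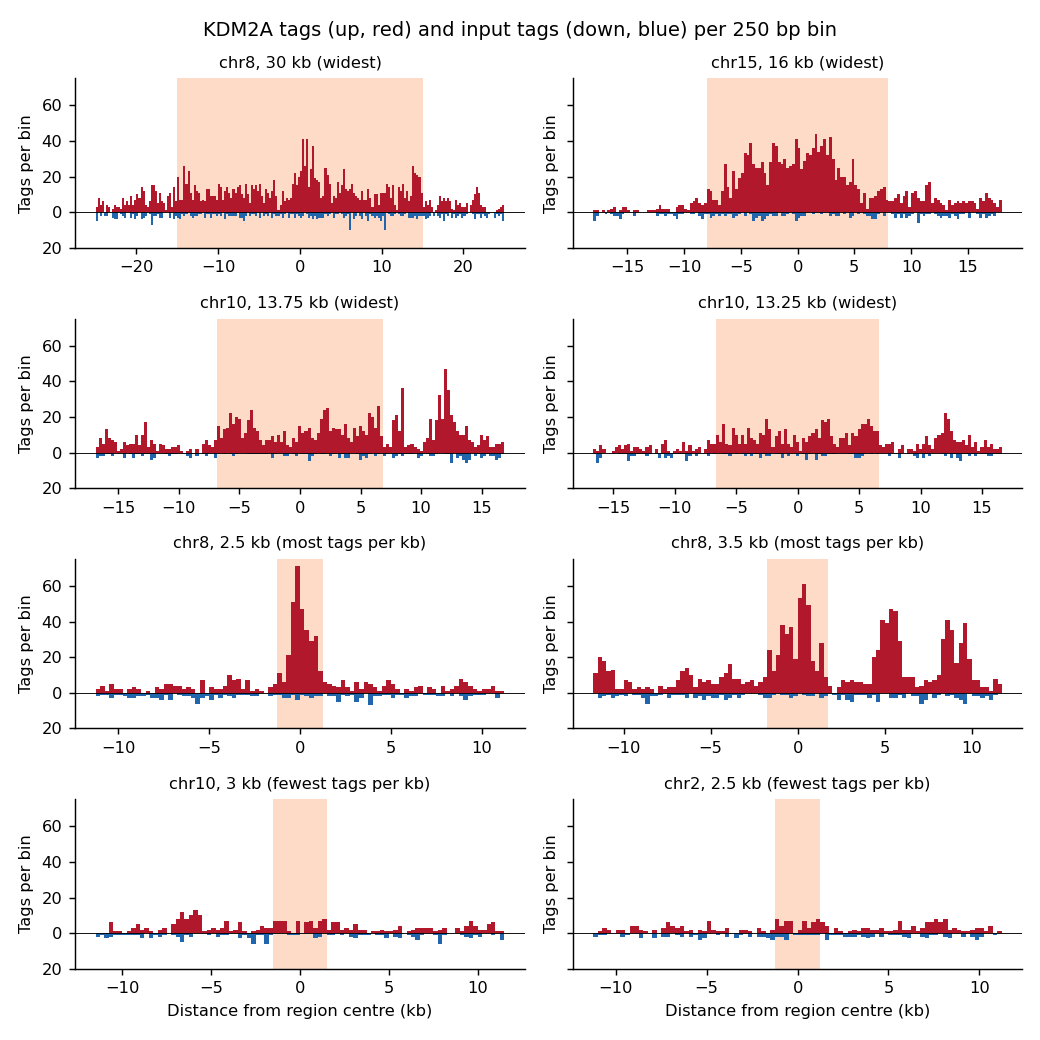
KDM2A tags (red, upward) and input tags (blue, downward) in each bin of 250 bp, against the distance from the centre of the domain in kb, for the 4 widest domains, the 2 densest and the 2 sparsest. Shading marks the domain. The domain of 16 kb on chromosome 15 is filled with tall bins, and the domain of 30 kb on chromosome 8 has many summits. The densest rises to 71 tags at a single summit, and the next densest reaches 61 tags with 100% of its bins past the limits. The sparsest stay at 8 tags or fewer inside the shading.

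Inside the domains the signal was uneven. In the median domain 78.6% of the bins passed the limits, and in 139 domains (7.96%, interval 6.78% to 9.32%) every bin did. Among the regions of 1 to 2.25 kb, 43.0% had no gap, but a shorter region has fewer bins in which a gap can fall. The longest run of passing bins had a median of 1.5 kb in the domains. The part at or above 0.5 times the height of the highest bin had a median of 0.75 kb in both classes, with an upper quartile of 1.25 kb in the domains and 1 kb in the shorter regions. In the domains with 1 summit its median was 1 kb. The highest bin held a median of 24 tags (range 8 to 96), against 18 in the shorter regions, and the median bin 10.5 tags in both. In the median domain the part near the greatest height was thus much narrower than the domain.

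Summits were counted in bins of at least 15 tags that were separated by a trough at or below 0.5 times the lower summit. By this count 176 domains (10.1%) had no bin of 15 tags and 868 (49.7%) had 1 summit. A further 519 (29.7%) had 2 summits, and 183 (10.5%) had 3 or more. Thus 702 domains (40.2%, interval 37.9% to 42.5%) held at least 2 summits, and 475 (27.2%) did so when the trough had to reach 33% of the lower summit. The median distance between neighbouring summits, taken within each of these domains, had a median of 1.5 kb over the domains (range 0.5 to 6.75 kb). The share with at least 2 summits was 31.0% at 2.5 to 3.75 kb, 65.8% at 4 to 5.75 kb and 91.6% at 6 kb or more, beside 4.38% in the regions of 1 to 2.25 kb, where there is less room for another summit. By this count most of the widest domains thus held several summits. Summits and troughs are single bins, and in domains of 6 kb or more the median bin held a median of 11 tags. How many summits counting error alone would give at such a level was not tested.

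In 149 domains (8.53%, interval 7.31% to 9.94%) bins with at least 15 tags, merged over gaps of up to 500 bp as in the rule, themselves spanned 2.5 kb or more. Without gaps, 28 domains (1.60%) held such a run of 2.5 kb or more. The 149 tall domains had a median width of 4.25 kb, 69.1 KDM2A tags per kb and a highest bin of 34 tags. Their input, 5.04 tags per kb, was near that of all domains (4.73). The widest merged stretch was 11.75 kb, with 10.5 kb of it free of gaps, in the domain of 16 kb on chromosome 15 named above. The next, chosen after their values were seen, reached from end to end of the 7.25 kb of chr10:79196751-79204000 (778 KDM2A and 36 input tags, 107 tags per kb, lowest bin 8 tags) and over 6.75 kb of chr8:72403751-72415250. At the other end were the 176 domains without a bin of 15 tags, which held 30.1 tags per kb and in which 60% of the bins passed.

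Both ends of the domains were at about the same level. The first and the last 500 bp of a domain held means of 21.5 and 21.1 KDM2A tags, and the first was higher in 839 domains, the last in 837 and neither in 70. The highest bin lay in the central part of the domain, when it was divided into 3, in 44.4%, in the first part in 30.6% and in the last part in 25.03%. The regions of 1 to 2.25 kb had 44.6%, 30.4% and 24.96%. In 198 domains the highest value was shared by several bins and was assigned to the first of them. In the other 1548 domains, the highest bin lay in the first part in 433 (28.0%) and in the last part in 423 (27.3%). When each domain was divided into 10 equal parts, the mean rose from 10.6 tags per bin in the outermost part to 14.3 in the middle and fell to 10.5, while input stayed between 1.04 and 1.30. The outermost bins had to pass the limits, which sets their KDM2A level from below and their input from above.

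The edges are set by the rule, since the outermost bin had to pass the limits and the 3 bins outside it had to fail them, as far as 0.75 kb out. The outermost bin of a domain held a mean of 10.6 tags and the bin just outside it 4.21. At 0.5 to 0.75 kb outside, the mean was 3.21 tags, it rose to 4.06 at 2.25 to 2.5 kb, and it was 3.503 at 9.75 to 10 kb. In the regions of 1 to 2.25 kb the same places held 11.03, 3.87, 2.52, 2.62 and 2.48 tags. The level outside rose with the width of the domain, to 4.78 tags per bin at 9.75 to 10 kb from domains of 6 kb or more. Input at the edge was 0.964 tags in the outermost bin and 1.53 in the next, the side of the edge on which the limits no longer hold input down.

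**Figure D3:**
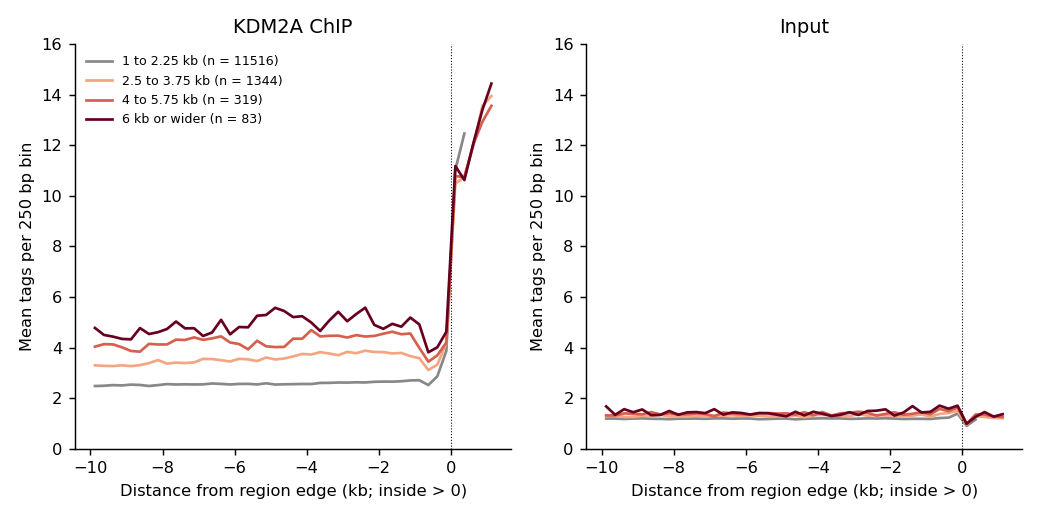
Mean tags per bin of 250 bp against the distance from the edge of the region in kb, with negative values outside, for KDM2A ChIP (left) and input (right). Lines are means of both edges of regions of 1 to 2.25 kb (grey) and of domains in 3 classes of width (light to dark red). KDM2A falls from over 10 tags to under 5 at the edge in every class, as the rule requires, dips at 0.5 to 0.75 kb outside and stays higher beside wider domains up to 10 kb. Input rises from 0.964 tags in the outermost bin of the domains to 1.53 in the bin outside.

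The raised level reached farther than the flanks. In the bins from 5 to 50 kb on either side that did not pass the limits, KDM2A had a median of 2.19 tags per bin around the domains, 1.73 around regions of 1 to 2.25 kb and 1.67 around regions under 1 kb. The genome mean over all bins was 0.950. The medians around domains of increasing width were 2.12, 2.36 and 2.65 tags. Input was raised in the same places, but less, at 1.31 tags per bin around the domains and 1.198 around regions of 1 to 2.25 kb, with a genome mean of 0.767. Without chromosomes 8 and 11, KDM2A was 2.07 around the domains and 1.62 around regions of 1 to 2.25 kb. A raised level of KDM2A tags thus surrounded the broad domains. Its part in their width was not tested beyond the setting with 4 times the level of the surroundings, which left 894 domains.

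The rule set no limit on strand balance and left copies out of the count. Moving tags by 50 bp brings the strands together at a given distance, so the strand distances below are not independent of the rule. Of the KDM2A tags in the domains, 50.1% lay on the plus strand (interval 49.9% to 50.2%). Tags beyond the first at a position and strand were 6.95% of the KDM2A tags in the domains, 6.74% in regions of 1 to 2.25 kb and 4.36% outside merged regions. For input these shares were 22.9%, 22.6% and 20.4%. The commonest distance from a plus-strand to a minus-strand tag, after smoothing over 9 bp, was 111 bp in the domains and 97 bp in the regions of 1 to 2.25 kb. Copies and strand balance in the broad domains were thus close to those of shorter regions.

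Under the main rule the domains lay close to one another. The nearest other domain was a median of 54.25 kb away (quartiles 10.5 and 293 kb), whereas from regions of 1 to 2.25 kb the nearest domain was 185 kb away. 1054 domains (60.4%, interval 58.1% to 62.6%) had another within 100 kb, and 39.7% of the regions of 1 to 2.25 kb had a domain within that distance. The shares within 10 kb were 24.3% and 11.8%. The difference at 100 kb was seen on 18 of 19 chromosomes, with 39.1% against 39.6% on chromosome 5 as the exception. Without chromosomes 8 and 11 the shares were 55.6% and 36.0%. The share within 100 kb rose from 56.0% of the domains of 2.5 to 3.75 kb to 71.5% at 4 to 5.75 kb and 89.2% at 6 kb or more. It was 28.2% with 50% of the tags, a setting that left 234 domains. With at least 9 tags per bin it was 50.3% among 920 domains, and with 4 times the level of the surroundings 28.2% among 894. At a similar number of domains the share was thus lower once the level of the surroundings entered the limit. The reason was not tested.

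The surroundings also held many shorter regions. The median domain had 23 other merged regions within 100 kb, beside 14 for regions of 1 to 2.25 kb, and the nearest region of any width was 1.5 kb away, beside 4 kb. Since gaps of over 500 bp ended a domain, many domains were parts of longer stretches of separate regions. Only 50 domains (2.86%) had no other merged region within 50 kb, beside 8.93% of the regions of 1 to 2.25 kb. These lone domains had a median width of 2.75 kb, 45.3 KDM2A tags per kb and 3.44 input tags per kb. Around them the bins below the limits held medians of 0.778 KDM2A and 0.832 input tags. A broad domain could thus also stand in surroundings well below the median of 2.19 KDM2A tags around all domains. The genome mean of 0.950 includes bins that passed, so it is not a like measure. The most isolated, described after its values were seen, lay at chr3:136332251-136334750, 770.5 kb from any other region, with 157 KDM2A and 7 input tags in 2.5 kb and 3 summits.

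**Figure D4:**
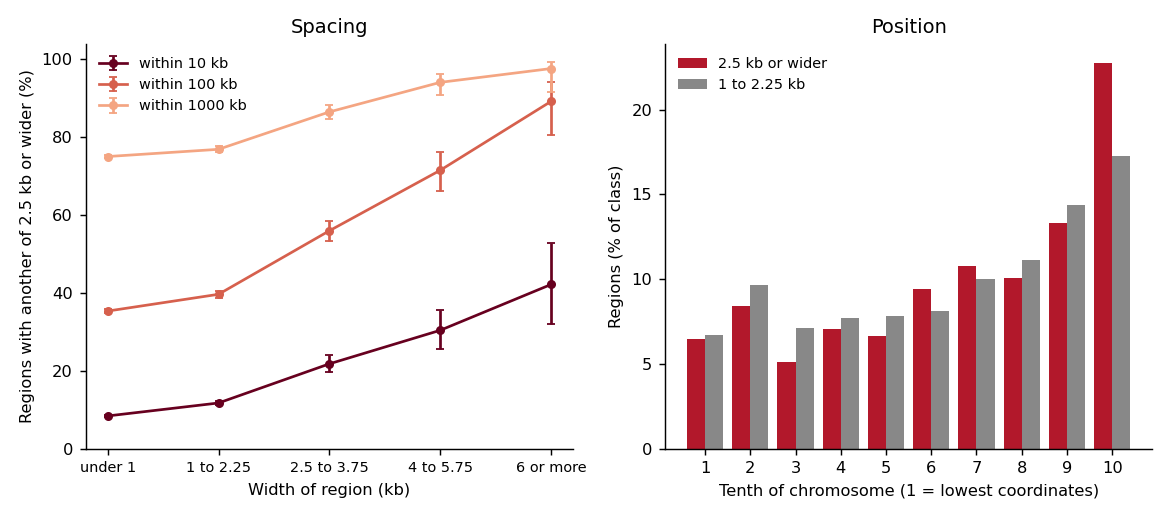
Left, share of regions (%) with another domain of 2.5 kb or more within 10, 100 or 1000 kb, by width of the region in kb, with 95% Wilson intervals as bars. Right, share of each class (%) in 10 equal parts of its chromosome, for domains (red) and regions of 1 to 2.25 kb (grey). The share within 100 kb rises from 39.7% at 1 to 2.25 kb to 89.2% at 6 kb or more, and the last part holds 22.7% of the domains.

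When domains within 100 kb of each other were joined, 692 stood alone and the other 1054 fell into 277 groups. Of these, 55 groups had 5 or more domains and together held 498. The largest, at chr10:79015501-79879250, held 39 domains of 2.5 to 10.25 kb in 863.75 kb, and they filled 19.1% of it. Their densities ran from 28.8 to 107 tags per kb. The second, at chr8:72804751-73441000, held 28 domains, of 35.7 to 117 tags per kb. The others among the 5 largest were chr10:80253501-80836000 with 22 domains, chr11:115661001-116198000 with 18 and chr8:73898251-74237250 with 17. Narrow and wide, dense and sparse domains thus stood side by side. In these 5 groups the surroundings below the limits had medians of 2.84 to 3.69 KDM2A tags and 1.44 to 1.91 input tags per bin, above the median of all domains.

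Counted in windows of 1 Mb, the domains were concentrated. Of 2406 windows, 624 (25.9%) held a domain, and the 91 windows (3.78%) with the most domains held 50% of them. Those windows held 23.0% of the regions of 1 to 2.25 kb. Because the windows were ranked by their domains, a lower share of the other class was built in. The matching number of windows for the shorter regions is not given here. A region of 1 to 2.25 kb but no domain was found in 1148 windows, but such regions (11518) also outnumbered the domains (1746). The window at 79 to 80 Mb of chromosome 10 held the most, with 40 domains, and was followed by 28 in the next Mb and 28 at 73 to 74 Mb of chromosome 8. From windows with no domain to windows with 5 or more, the median KDM2A level of bins below the limits rose from 0.572 to 1.96 tags. Input, taken over all bins of a window, rose from 0.676 to 1.23 tags per bin. Windows with many domains thus had more KDM2A tags in the bins the rule did not take, and more input tags over all their bins.

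Chromosomes 11 and 8 had the most domains, 244 (14.0%) and 215 (12.3%), or 2.05 and 1.67 per Mb. The lowest numbers were 0.243 per Mb on chromosome 3 and 0.247 on chromosome 13. The order followed that of the regions of 1 to 2.25 kb (Spearman's rho 0.97 over 19 chromosomes, which share both libraries). There were 23.0 domains per 100 such regions on chromosome 8, 21.3 on chromosome 11, 19.4 on chromosome 10 and 9.09 on chromosome 3. Input density was 1.38 times that of the median autosome on chromosome 8 and 1.36 times on chromosome 11, and 0.868 to 1.11 times on the other 17. Median KDM2A density of the domains was 55.1 tags per kb on chromosome 8 and 47.7 on chromosome 11. In another setting the minimum of 7 tags was raised on chromosomes with input above the median autosome and kept at 7 on the others. It left 1309 domains, of which 8.86% lay on chromosome 8 and 6.65% on chromosome 11. That setting was strictest on these chromosomes, so lower shares there follow by construction. Both per Mb and per 100 regions of 1 to 2.25 kb, the high number of domains on chromosomes 8 and 11 went with a high input level.

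**Figure D5:**
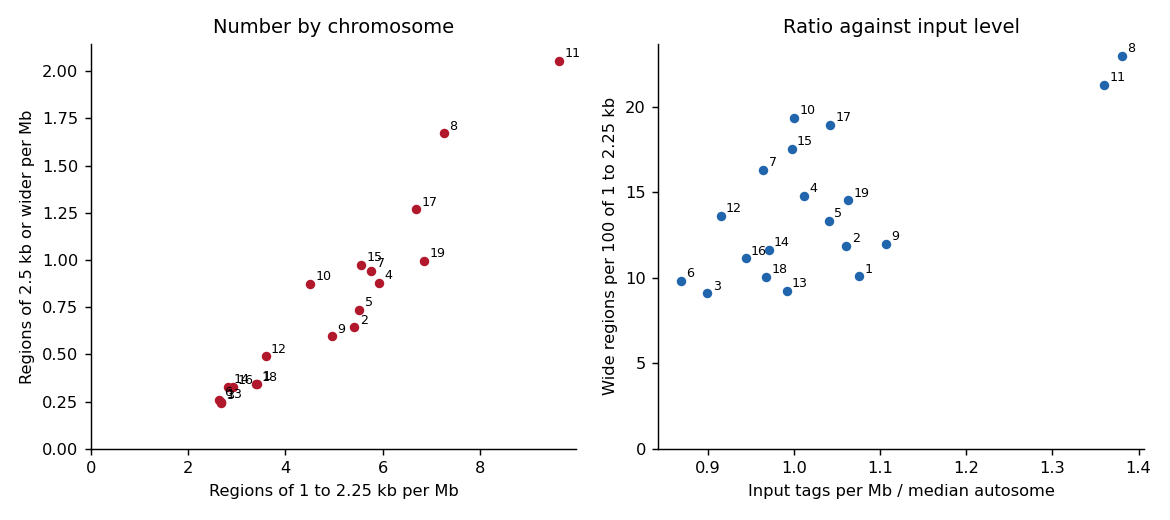
Left, domains per Mb against regions of 1 to 2.25 kb per Mb for each of 19 chromosomes, which are numbered. Right, domains per 100 regions of 1 to 2.25 kb against the input tags per Mb of the chromosome divided by those of the median autosome. Chromosomes 11 and 8 lie highest in both plots and stand apart in input, at 1.36 and 1.38, whereas chromosome 10 has 19.4 domains per 100 regions at the input level of the median autosome.

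Along the chromosomes, which are numbered from the centromere in the mouse assembly, domains were on the whole most frequent toward the far end, but not on every chromosome. Of 10 equal parts of each chromosome, the last held 397 domains (22.7%, interval 20.8% to 24.8%) and 17.3% of the regions of 1 to 2.25 kb, and the first 6.47% and 6.74%. Without chromosomes 8 and 11 the last part held 19.3% and 15.9%. By chromosome the share of domains in the last part ran from 2.63% to 60.3% and was under 10% on 8 of 19. The 6 chromosomes with the most such domains, 2, 4, 5, 8, 11 and 12, held 303 of the 397. The excess over the shorter regions was not general, since the share of domains was higher on 10 chromosomes and lower on 9. It was greatest on chromosome 12, where 35 of 58 domains (60.3%, beside 26.8%) lay in the last part, and was also seen on chromosome 4 (46.3% beside 26.3%). On chromosome 16 it was opposite (9.68% beside 24.8%).

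The region of chromosome 3 that the study drew to show KDM2A over CpG islands held 4 merged regions, of 0.75, 0.25, 1.5 and 1 kb, and no broad domain. The widest of them, at chr3:103718001-103719500, held 101 KDM2A and 4 input tags with a highest bin of 30 tags.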

How the data were processed

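The authors deposited, for a KDM2A ChIP library and an input library from mouse ESCs, raw counts, the number of tags that began at every position of either strand. Per the labels, reads were aligned to mm9 with Bowtie, whose version and settings are not given in the sources used here. The highest count at a position was 7 in the ChIP and 9 in the input library. Each library was amplified by PCR, and tags beyond the first at a position and strand made up 4.75% and 20.4% of the libraries. Depth was 9564671 and 7764852 positions.

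Positions were counted once, moved by 50 bp and placed in 250 bp bins of chromosomes 1 to 19. Input was multiplied by 1.23, the ratio of the numbers of positions. Bins that passed the limits given in the text were merged. Regions were named by a rule: the 10 widest, the 5 with the most and the 5 with the fewest tags per kb, the 5 largest groups within 100 kb, and the regions of the window the study drew. Members, classes and the rule were chosen with earlier results of these data known. Shares have Wilson intervals and tag counts exact Poisson intervals, at 95%. The rule was run on simulated bins with planted regions of known width and even height. Their background was level, so the run could not show what raised surroundings do to the number or width of domains. Alternatives changed the counting of copies, bin start, tag, ratio and input limits, merging gap, tag movement, input scaling and depth. With 1 library per condition no test was made. Gene names and sequences were not used, since no genome or annotation of mm9 was used here. Calculations were run with scipy 1.17.1, pandas 2.3.3 and numpy 2.4.6 under Python 3.11.15, and plots with matplotlib 3.10.9.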

Additional observations from a re-analysis of the deposited data

Results flagged for a closer look

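Chromosome X was outside the comparisons, which used chromosomes 1 to 19. Under the same limits it held 499 merged regions, of which 4 were 2.5 kb or wider, and exchanging the libraries gave 0 of that width. They spanned 2.5 kb at chrX:11582501-11585000 (67 KDM2A and 3 input tags), 2.75 kb at chrX:147080751-147083500 (105 and 2), 2.75 kb at chrX:154255501-154258250 (84 and 7) and 6 kb at chrX:166423751-166429750 (622 and 107). The last had the most input tags of the 4, and its input density was above the highest of any domain on chromosomes 1 to 19, 13 tags per kb. Input density on chromosome X was 1064 tags per Mb, against 3036 on the median autosome, chromosome 10. Chromosome Y held 1 merged region, of 0.25 kb.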

How the results depend on the processing

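No paired analysis was possible because there was 1 library of each kind, and no replicate could be left out. Of 12 alternatives, 7 left the number of domains within 1.5 times of 1746. It was 920 with at least 9 tags, 1066 with gaps up to 250 bp, 3047 with gaps up to 1000 bp, 234 after 50% of the tags were drawn at random, and 894 with 4 times the local KDM2A level. The last alternative and the one with the minimum raised by chromosome input were added after the data were seen. The median width, 3000 bp, was 3250 bp with gaps up to 1000 bp and 2750 bp with 50% of the tags, and 10 alternatives left it within its interval. Widths begin at the limit of 2.5 kb and their number falls steeply above it. A median near that limit is therefore largely set by the rule. The share of domains with another within 100 kb, 60.4%, left its interval in 9 of 12 alternatives. It was 65.5% with all deposited tags, 50.3% with at least 9 tags, 53.4% with at least 5 times input, 53.8% with gaps up to 250 bp, 71.4% with gaps up to 1000 bp, 64.4% with input scaled by all tags and 28.2% with 50% of the tags. Of the added alternatives, it was 53.4% with the minimum raised by chromosome input and 28.2% with 4 times the local level. Fewer tags under fixed limits, and limits that fewer bins pass, leave fewer domains by construction. For the other settings the cause was not tested. Depth limits the set, since with 50% of the tags 12.9% of the domains overlapped a domain called again.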

Other observations

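Some domains, described after their values were seen, stood out by their ratio of KDM2A to scaled input rather than by width. At chr19:7341501-7344250 the ratio was 58.7, with 217 KDM2A and 3 input tags in 2.75 kb, and at chr7:134168251-134171750 it was 56.8, with 210 and 3 tags in 3.5 kb. At chr14:57504251-57507000 it was 52.4 (129 and 2 tags), at chr15:96114751-96119250 it was 49.2 (303 and 5 tags) and at chr6:99641001-99644000 it was 44.3 (273 and 5 tags). The lowest ratio of any domain was 2.65 and the median 8.30. With 2 to 5 input tags these ratios are uncertain by counting alone. Another group, the most isolated domains, were all 2.5 to 3 kb wide. After the one on chromosome 3 named above, they lay at chr15:64752001-64754750 (537.25 kb from any other region, 127 KDM2A and 10 input tags), chr3:38784001-38787000 (400.25 kb, 122 and 6 tags), chr13:46058751-46061250 (395 kb, 128 and 6 tags) and chr9:8899751-8902250 (329.25 kb, 108 and 4 tags). The bins below the limits around these 4 held 0.381 to 1.08 KDM2A tags, and fewer KDM2A than input tags at each of the 4.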
